A study of Mus musculus with 67 samples.

Results

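Chromatin regulator genes were followed in the mouse striatum over postnatal maturation, adult age, diet and sex. They were taken as every feature of the filter whose single gene symbol began with a prefix of a histone deacetylase (Hdac, Sirt), acetyltransferase (Kat), demethylase (Kdm), methyltransferase (Kmt, Setd), nucleosome remodeler (Smarc, Chd), AT-rich domain protein (Arid), reader of histone marks (Brd, Cbx, Phf), high mobility group protein (Hmga, Hmgb, Hmgn) or Rb-binding protein (Rbbp). The X-linked Kdm5c, Kdm6a and Phf8 were left out of the set. In all, 79 of 8448 features and 61 of 4209 named genes met this rule, and features of the same gene were averaged. A further 12 features carried several symbols, 1 of them a member name, and were not counted.

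DNA in the nucleus is wound around histones, and the state of this packaging sets how easily a gene can be read. Acetyltransferases and deacetylases add and remove acetyl groups on histone tails, methyltransferases and demethylases do the same for methyl groups, and proteins with bromodomains, chromodomains or PHD fingers bind the marked tails. Remodelers of the SWI/SNF, ISWI and CHD families slide or evict nucleosomes, while high mobility group proteins bend DNA or bind nucleosomes. In the striatum, the forebrain nucleus for movement control and reward learning, such proteins are known for their part in responses of medium spiny neurons to dopamine and to drugs, and Sirt1 is widely studied in ageing and energy restriction.

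Striatal RNA from 67 C57BL/6 mice was hybridized to nylon cDNA filters, with 1 mouse on each filter. Adults were young (169 to 194 days), middle-aged (472 to 499 days) or old (673 to 743 days), of both sexes, and were fed ad libitum (AL) or on caloric restriction (CR), in which regular chow was given until 13 weeks of age and a fortified feed was then lowered in steps to 60%. Each age, diet and sex had 5 mice, except young CR males (4) and old CR males (3). All 3 old CR males were 673 days old, whereas AL males of that age class had reached 714 to 743 days, so that diet and age could not be fully separated in old males. In addition, 10 juveniles of 17 to 44 days were studied, all on AL feeding. The tissue was whole striatum, in which fewer cells of a type and less RNA per cell cannot be told apart. Values are Z scores, the distance of a feature from the mean of its own filter in units of the SD of that filter. They show the standing of a gene on the filter, so differences are given in Z units and not as fold changes.

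The values of 1 old AL male and 1 old AL female, replicate 5 of each sex, ran in the opposite order to the rest and were turned end to end before any test. In 8 filters, here called the arrays of different profile, the correlation with the median profile was 0.925 to 0.946, against at least 0.976 in the other 59. They came from 8 different groups, with at most 2 in any age and diet. Results that rest on them are given with and without them. The sample titles are numbered in 5 runs, each with about 1 mouse of every group, and what a run stands for is not given in the sources used here. Arrays of 1 run deviated together to a degree, so values with the run as a term are given where they differ. Of 13 striatal neuron markers fixed as a list, 4 had a feature of their own symbol, and Ppp1r1b, the dopamine-regulated phosphoprotein DARPP-32 of medium spiny neurons, had a mean score of 0.509 in adults and 0.607 in juveniles. The 4 markers together had a median difference between CR and AL mice over the ages of 0.051. Ppp1r1b (0.122 ± 0.0612) and Arpp19 (0.0378 ± 0.0291) were higher in CR, whereas Meis2 was at -0.00525 ± 0.026. Rasd2, a GTP-binding protein of striatal neurons, differed by 0.0642 ± 0.0312 (limma, unadjusted p = 0.0451, not under 0.05 after adjustment). No other marker of this list had an unadjusted p under 0.05 there, which 0.256% of all rows tested reached. Of 10 astrocyte markers 5 were on the filter and 3 were tested. All 3 were higher in old than middle-aged mice in both diets, and Cst3, the protease inhibitor cystatin C, was higher in old than young AL mice by 0.277 ± 0.0943 (limma, unadjusted p = 0.00502, adjusted p = 1), a larger difference than that of any tested member. The other 2, Sparcl1 and Vim, differed between old and young AL mice by 0.056 ± 0.0858 and -0.006 ± 0.038. Between middle-aged and young AL mice Cst3 differed by 0.09, Sparcl1 by -0.07 and Vim by -0.065. The summed score of the 5 markers ran from 0.065 to 2.05 (median 0.848) in young and from 0.385 to 1.66 (median 1.07) in old AL mice. The part of either marker list in the diet and age differences below was not tested.

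Among the 61 members, 25 had a mean score above 0 in adults and were tested with limma among 3904 rows of the filter. The other 36 lay below the average feature and were described apart. The tested set held 3 of 6 deacetylases, 2 of 4 acetyltransferases, 1 of 5 demethylases, 5 of 9 methyltransferases, 4 of 15 remodelers, 1 of 2 Arid genes, 4 of 12 readers, 3 of 4 high mobility group genes and 2 of 4 Rbbp genes. Differences are first minus second named group, ± SE of the limma fit, in which both sexes weigh equally.

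Promoter sequences from RefSeq (GRCm38.p6, 300 bases from 250 before the start to 50 after it) were found for 48 members, with 63 promoters in all. Their median GC content was 65% and their median CpG observed-over-expected ratio was 0.866. The 4432 promoters of all genes on the filter had medians of 61% and 0.769, and all 32851 RefSeq promoters 52.7% and 0.384. The ETS core CCGGAAG, searched on both strands, was in 20.6% of member promoters, 17.6% of promoters of genes on the filter and 8.86% of all promoters. The CCAAT box, likewise on both strands, was in 38.1%, 36.9% and 37.4%, and TATAAA in 1.59%, 6.97% and 13.6%. The promoters of Hmgb2 (chr8:57511593-57511892, plus strand) and Kdm7a (chr6:39206724-39207023, minus strand) are shown because these genes stand among the leading members below and differ in composition. Capitals mark CCAAT in Hmgb2, which has 4 copies, and the ETS core in Kdm7a, which has 1.
Hmgb2: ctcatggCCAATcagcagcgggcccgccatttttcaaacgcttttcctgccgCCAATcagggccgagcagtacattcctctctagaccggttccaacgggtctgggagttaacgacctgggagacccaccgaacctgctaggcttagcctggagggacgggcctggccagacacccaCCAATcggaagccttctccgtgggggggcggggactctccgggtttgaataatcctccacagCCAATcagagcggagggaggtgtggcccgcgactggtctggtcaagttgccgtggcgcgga
Kdm7a: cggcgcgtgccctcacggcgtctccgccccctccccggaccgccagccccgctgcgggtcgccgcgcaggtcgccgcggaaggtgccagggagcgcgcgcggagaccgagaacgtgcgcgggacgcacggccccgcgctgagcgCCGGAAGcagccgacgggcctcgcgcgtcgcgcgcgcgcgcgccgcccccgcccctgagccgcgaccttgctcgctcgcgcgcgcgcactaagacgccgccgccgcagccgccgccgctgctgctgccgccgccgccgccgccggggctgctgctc
The Hmgb2 window held 20 CpG sites at a GC content of 62%, and the Kdm7a window 65 CpG sites at 82.7%. A match of letters is a description of the sequence and was not set against the scores.

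From the juvenile to the young adult AL mice, 16 of 25 members were higher, against 52.4% of the 3892 rows tested, with a median difference of 0.021 for members and 0.004 for all rows. No member and no row passed an adjusted p of 0.05 (0 of 25 and 0%), while 1 member and 0.514% of rows had an unadjusted p under 0.05. Without the arrays of different profile 12 of 24 members were higher (52% of rows), with a median of 0.00125. With the run as a term 3 members and 4.98% of rows had an unadjusted p under 0.05, and the smallest adjusted p of a member was 0.957 (limma). From young to middle age, 12 of 25 members were higher, against 50.5% of rows, with a median of -0.002. Again 0 members and 0% of rows passed, and 2 members (0.845% of rows) had an unadjusted p under 0.05. From middle to old age, 12 of 25 members were higher (51.4% of rows), with a median of -0.003, and 0 members had an unadjusted p under 0.05 (0.333% of rows). Between young and old AL mice, 9 of 25 members were higher and 16 lower, where 49.5% of rows were higher, and the median was -0.013. When the arrays of different profile were left out, 24 members were tested, of which 12 were higher and 12 lower, with a median of 0.00262. In the contrast of all mice, 0 members passed and 1 had an unadjusted p under 0.05 (0.307% of rows). The young AL mice enter 3 of these 4 comparisons, so their differences are not independent of each other.

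Arid4a, which encodes an Rb-binding subunit of a Sin3 histone deacetylase complex, had the smallest unadjusted p of the members in these 3 comparisons. Its scores ran from 0.14 to 0.44 with a median of 0.355 in juvenile mice, and from 0.30 to 0.94 with a median of 0.455 in young AL mice. They ran from 0.24 to 0.42 (median 0.315) in middle-aged AL mice and from 0.21 to 0.59 (median 0.335) in old AL mice. The 10 middle-aged mice all lay below the median of the young mice, but every pair of these groups overlapped, and 1 young female, on an array of different profile, stood alone at 0.94. Young exceeded juvenile AL mice by 0.146 ± 0.0659 (limma, unadjusted p = 0.0378, adjusted p = 1). Middle-aged were below young AL mice by -0.133 ± 0.0521 (limma, unadjusted p = 0.0139, adjusted p = 1), and old below young by -0.114 ± 0.0521 (limma, unadjusted p = 0.0336, adjusted p = 1). Two-sided permutation tests of the scores gave p = 0.0216, 0.0161 and 0.106. The rule stated in the study's methods, a Z-ratio beyond 1.5 with an unadjusted p under 0.05, applied here without the analysis of variance that follows it in the methods, called Arid4a between young and juvenile mice (0.565% of rows) and, together with Kdm7a, between middle-aged and young mice (0.514% of rows), and neither after Benjamini-Hochberg adjustment. Without the arrays of different profile the plain differences were 0.0963, -0.084 and -0.0818, with exact permutation p = 0.0568, 0.0369 and 0.067. Adjusted over the 18 single-gene tests of this kind, the smallest p was 0.13. In CR mice, Arid4a differed by -0.00408 ± 0.0578 between old and young, with a 95% interval from -0.12 to 0.112. The difference of the age effect between diets was 0.11 ± 0.0779 (limma, unadjusted p = 0.164, adjusted p = 0.917).

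**Figure D1:**
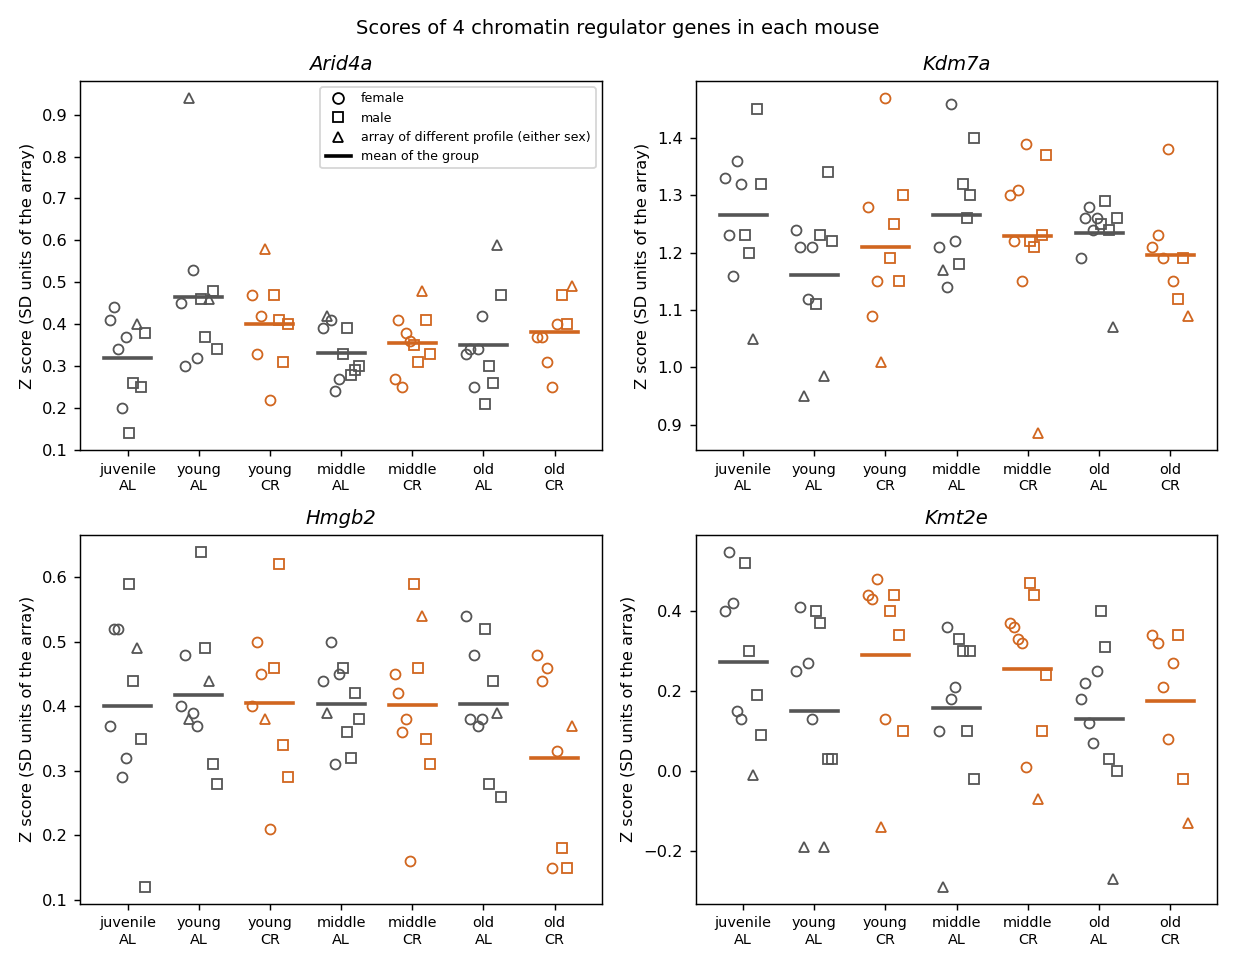
Z scores of Arid4a, Kdm7a, Hmgb2 and Kmt2e (vertical axes, in SD units of each array) in every mouse, by age and diet (horizontal axes), with AL in grey and CR in orange. Circles are females, squares males, triangles arrays of different profile and bars group means; groups overlap in all 4 panels, and the single high Arid4a score is 0.94 in a young AL female.

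Kdm7a, a demethylase of repressive histone methyl marks, ran from 0.95 to 1.34 (median 1.21) in young AL mice and from 1.14 to 1.46 (median 1.24) in middle-aged AL mice. Scores of old AL mice lay from 1.07 to 1.29 with a median of 1.25, and those of juveniles from 1.05 to 1.45 with a median of 1.27. The groups overlapped over most of their ranges, and the lowest juvenile, young and old scores came from arrays of different profile. Middle-aged exceeded young AL mice by 0.106 ± 0.0525 (limma, unadjusted p = 0.048, adjusted p = 1), and a two-sided permutation test gave p = 0.0484. Without the arrays of different profile the plain difference was 0.069 (exact permutation p = 0.138). Kdm7a was measured by 2 features, which differed between middle and young AL mice by 0.191 ± 0.14 and 0.022 ± 0.0699. Over adult mice these features correlated at -0.768 about their group means, and at -0.302 without the arrays of different profile.

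Between young and old AL mice, the families moved by small amounts and none of their members passed the adjusted threshold. The directions of whole families turned with the arrays of different profile. With all mice, both acetyltransferases tested (Kat2b and Kat6a) and all 4 readers (Brd7, Phf7, Phf14 and Phf20) were below 0, 4 of 5 methyltransferases were below 0 and both Rbbp genes were above 0. Without those arrays this held for 1 of 2 acetyltransferases, 2 of 4 readers and 2 of 5 methyltransferases, and both Rbbp genes were below 0. Kat2b kept its sign, at -0.076 ± 0.047 with all mice and -0.0882 without those arrays. Its score in old AL male replicate 5, 1 of the 2 turned columns, was 0.31, against 0.51 to 0.79 in the other old AL mice. With 1 array left out at a time the Kat2b difference lay between -0.097 and -0.0407, the latter without this mouse. Kmt5b, which adds methyl groups to histone H4, also kept its sign, at 0.0605 ± 0.0351 and 0.0732. Its 2 features correlated at -0.732 over adult mice about their group means, and at -0.312 without those arrays. Rbbp9 moved from 0.081 ± 0.104 to -0.0182 ± 0.0581 and Rbbp5 from 0.045 ± 0.118 to -0.0005 ± 0.0787. Of 3 deacetylases, Hdac1, a class I enzyme of several repressor complexes, differed by 0.022 (95% interval -0.078 to 0.122), Sirt1, the NAD-dependent deacetylase, by 0.014 (-0.128 to 0.156), and Hdac11 by -0.02 (-0.153 to 0.113). Sirt1 was at -0.06 and Hdac11 at 0.012 without the arrays of different profile. Over the 25 members the half-width of the 95% interval was 0.0706 to 0.294 with a median of 0.133. A difference smaller than the half-width of its own gene has an interval that includes 0.

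**Figure D2:**
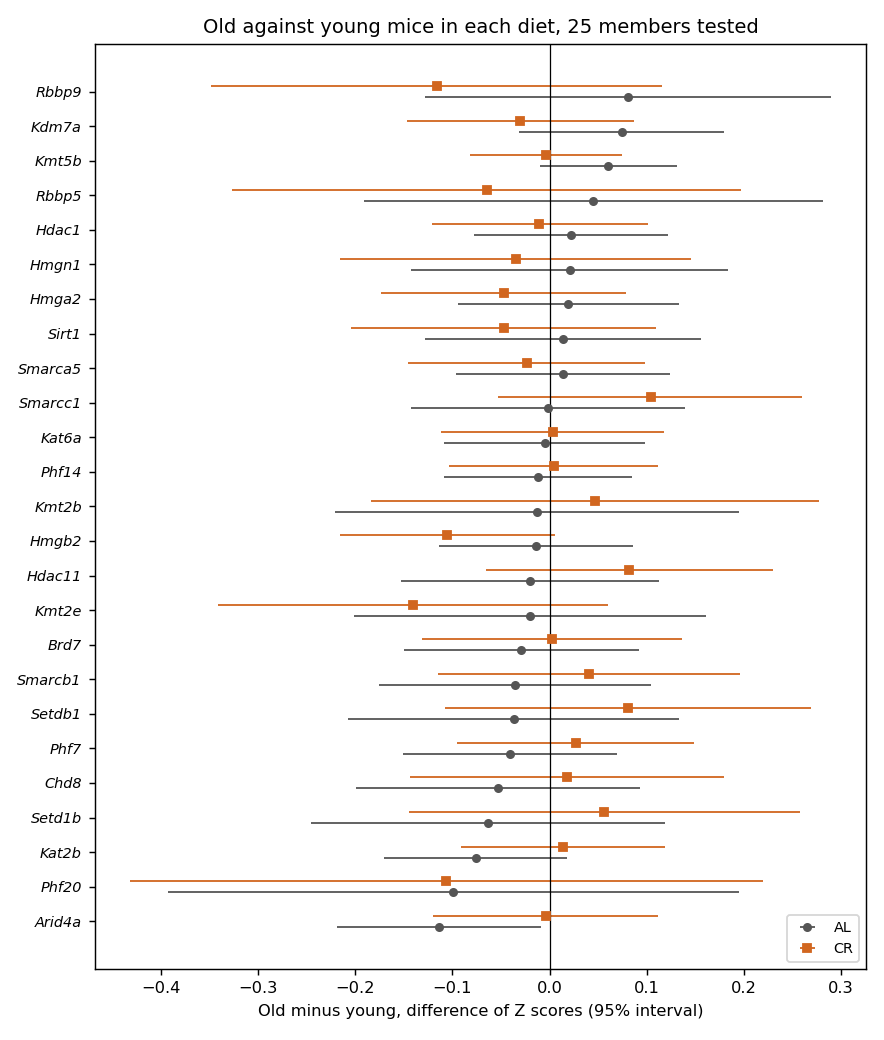
Old minus young difference of Z scores (horizontal axis) for each of the 25 members tested (vertical axis), with AL as grey circles, CR as orange squares and lines for 95% intervals. Arid4a in AL mice, at -0.114, is the 1 estimate whose interval, -0.219 to -0.00923, lies wholly on one side of 0.

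In CR mice, from young to middle age, 11 of 25 members were higher (45.7% of rows), with a median of -0.0075, and from middle to old age 12 of 25 were higher (48.6% of rows), with a median of -0.00667. Old against young CR mice gave 12 higher and 13 lower (49.7% of rows), with a median of -0.00346. In the 3 comparisons 0 members and 0% of rows passed the adjusted threshold. Unadjusted p under 0.05 was found for 0 members in each, against 2.18%, 0.999% and 0.154% of rows. With array weights estimated by limma, 2 members passed from young to middle age (Hmgn1 and Smarcc1; 16% of rows), 2 from middle to old age (Hmgb2 and Kmt2e; 4.43%) and 8 between young and old age (Hdac11, Hmgb2, Kmt2b, Kmt2e, Rbbp5, Rbbp9, Setd1b and Smarcc1; 24.8%). That fit gave 1 of the 3 old CR males a weight of 135, against 3.92 for the next array, and stopped before it converged.

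Hmgb2, a DNA-bending protein abundant in dividing cells, had the smallest unadjusted p among the members lower in old than young CR mice. Its scores were 0.18, 0.15 and 0.37 in the 3 old CR males and 0.48, 0.44, 0.46, 0.15 and 0.33 in the 5 old CR females. In young CR mice they ran from 0.21 to 0.62 (median 0.40), in middle-aged CR mice from 0.16 to 0.59 (median 0.40) and in old AL mice from 0.26 to 0.54 (median 0.385). Low scores in old CR mice came from 2 males and 1 female, and the other 5 mice lay within the range of old AL mice. Old CR mice differed from young CR mice by -0.105 ± 0.0551 (limma, unadjusted p = 0.0625, adjusted p = 0.977), from middle-aged CR mice by -0.0993 ± 0.0537 and from old AL mice by -0.101 ± 0.0537 (limma, unadjusted p = 0.0651, adjusted p = 1). Exact two-sided permutation tests without regard to sex gave p = 0.203, 0.209 and 0.154. Without the arrays of different profile the limma differences were -0.14 ± 0.0613, -0.122 ± 0.06 and -0.134 ± 0.06, with unadjusted p = 0.0269, 0.0476 and 0.0306 and adjusted p of 0.999, 0.66 and 1. The old CR males then counted 2 mice. In that fit 1.07%, 7.02% and 0.536% of rows had an unadjusted p under 0.05 in the 3 comparisons (limma). With the run of title numbers as a term in all mice the differences were -0.104 ± 0.0471, -0.11 ± 0.046 and -0.112 ± 0.046. They had unadjusted p = 0.0318, 0.0214 and 0.0193 and adjusted p of 0.894, 1 and 1 (limma). An unadjusted p under 0.05 was then reached by 0.922%, 1.64% and 0.256% of rows.

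Kmt2e, a member of the trithorax-related MLL family with a SET domain and a PHD finger, had a median of 0.40 (-0.14 to 0.48) in young CR mice and of 0.24 (-0.13 to 0.34) in old CR mice. All 8 old scores lay below the young median, although the ranges overlapped. The difference was -0.14 ± 0.0999, with a 95% interval from -0.341 to 0.0604 (limma, unadjusted p = 0.166, adjusted p = 0.977). On the higher side stood Smarcc1, a core SWI/SNF subunit, with 0.21 to 0.83 (median 0.32) in young and 0.32 to 0.76 (median 0.49) in old CR mice. It differed by 0.104 ± 0.0777 (limma, unadjusted p = 0.189, adjusted p = 0.977). Each group held 1 array of different profile, and without these the differences were -0.143 ± 0.0799 for Kmt2e and 0.105 ± 0.0555 for Smarcc1. With 1 array left out at a time, Kmt2e lay between -0.209 without old CR male replicate 1 and -0.092 without old CR male replicate 3, and Smarcc1 between 0.165 and 0.0553 without the same 2 mice. Without the arrays of different profile, Smarcc1 and Rbbp5, a shared subunit of MLL-type methyltransferase complexes, had unadjusted p under 0.05 between middle-aged and young CR mice, at 0.108 ± 0.0494 and -0.162 ± 0.0787. In the same fit 18.4% of all rows did so and 0 passed the adjusted threshold, so that 2 members of the set stood below the share over all rows.

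CR was set against AL at each age. In young mice 14 of 25 members were higher in CR than in AL (50% of rows), in middle-aged mice 17 (48.9% of rows) and in old mice 18 (47.2% of rows). Their medians were 0.0045, 0.016 and 0.0227, against medians over all rows of 0, -0.001 and -0.00267. Over the 3 ages 18 of 25 members were higher in CR (45.7% of rows), with a median of 0.00425 and single differences from -0.0375 to 0.0886. With an adjusted p under 0.05 there were 0 members and 0% of rows in each of the 4 comparisons. With an unadjusted p under 0.05 there were 0 members, against 0.487%, 0.0768%, 0.102% and 0.256% of rows. Without the arrays of different profile 15 of 24 members were higher over the ages (46.2% of rows), with a median of 0.0119. In young, middle-aged and old mice 15, 16 and 14 of 24 were then higher (49%, 51.1% and 47.1% of rows). With the run as a term 15 of 25 were higher over the ages (44.6% of rows), with a median of 0.00245. By age 12, 17 and 16 of 25 were then higher (48.6%, 48.9% and 47.2% of rows). In the fit of all mice without the run, all 3 deacetylases tested were higher in CR over the ages, as were 6 of 6 with those below the filter. The median was 0.0151 for those tested. In young, middle-aged and old mice 2, 3 and 3 of the 3 were higher, and 3, 5 and 5 of the 6. Over the ages all 3 tested were again above 0 without the arrays of different profile, and with the run as a term. Of 4 remodelers 3 were higher (1 of the 3 tested without those arrays), of 4 readers 3 (3 of 4) and of 5 methyltransferases 2 (3 of 5).

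Kmt2e and Sirt1 had the largest differences on the higher side. Kmt2e ran from -0.29 to 0.41 with a median of 0.18 in 30 adult AL mice, and from -0.14 to 0.48 with a median of 0.32 in 27 adult CR mice. The difference over the ages was 0.0886 ± 0.054 (limma, 95% interval -0.0199 to 0.197, unadjusted p = 0.107, adjusted p = 1), and it was 0.143 in young, 0.1 in middle-aged and 0.0227 in old mice. Sirt1 ran from -0.18 to 0.50 (median 0.27) in AL and from 0 to 0.65 (median 0.30) in CR mice. Ranges overlapped almost fully for both genes, and the lowest scores of each came from arrays of different profile. Sirt1 differed by 0.059 ± 0.0422 (limma, 95% interval -0.0259 to 0.144, unadjusted p = 0.169, adjusted p = 1). Without the arrays of different profile the differences were 0.0741 ± 0.0425 for Kmt2e and 0.0421 ± 0.03 for Sirt1, and Sirt1 in young mice moved from 0.0853 ± 0.0727 to 0.0025 ± 0.0515. Hmgb2 stood lowest, at -0.0375 ± 0.0298 over the ages, a value carried by the old mice described above.

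**Figure D3:**
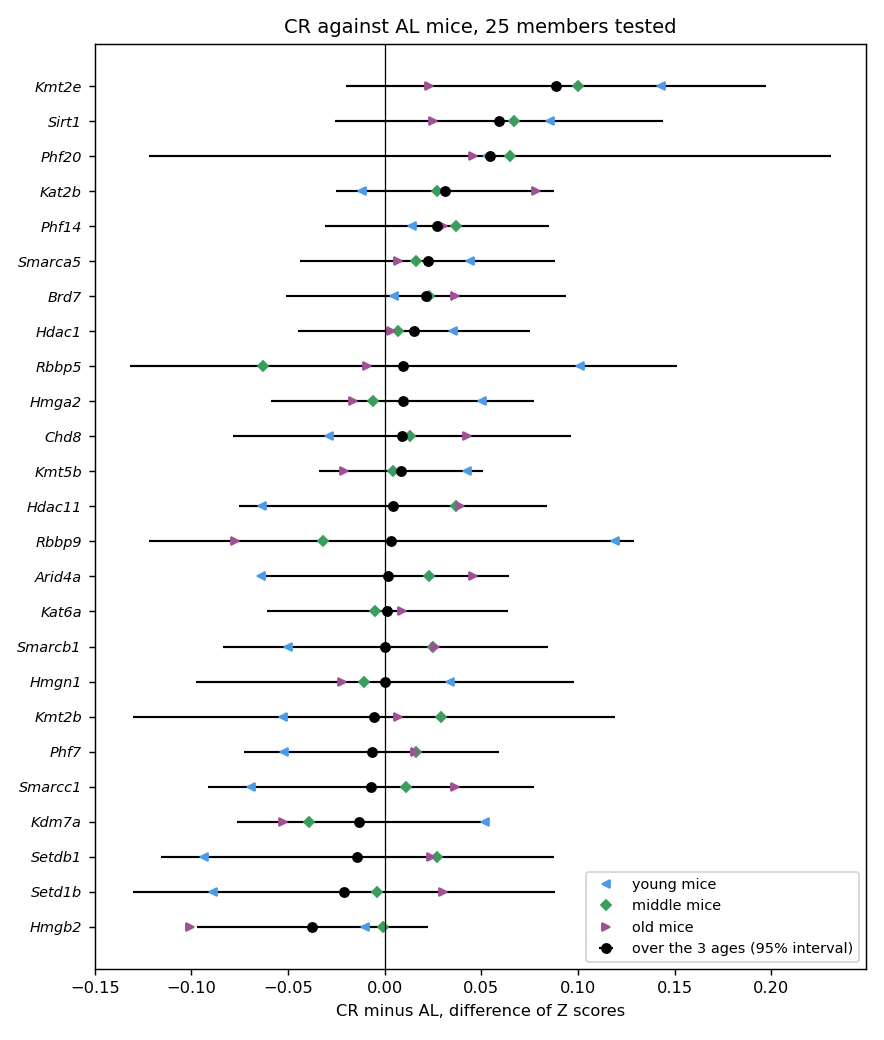
CR minus AL difference of Z scores (horizontal axis) for the 25 members tested (vertical axis). Black circles with 95% intervals are the difference over the 3 ages and coloured marks the difference at each age; all 25 intervals include 0, from -0.0375 for Hmgb2 to 0.0886 for Kmt2e.

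The change from young to old age was compared between diets. In CR relative to AL mice it was more positive for 13 of 25 members (51.1% of rows), with a median of 0.00817. For this difference 0 members passed and 0 had an unadjusted p under 0.05, against 0% and 0.179% of rows. The differences lay from -0.197 ± 0.155 for Rbbp9 to 0.119 ± 0.135 for Setd1b, and the smallest unadjusted p was that of Arid4a, given above. When the arrays of different profile were left out, 10 of 24 members were more positive, with a median of -0.0103, and Rbbp9 was at -0.0945 ± 0.0874. Half-widths of the 95% intervals were 0.105 to 0.439, the widest among adult comparisons.

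The 5 juvenile mice of 33 to 44 days were set against the 5 of 17 to 21 days, in a fit that adjusted for sex. Of 25 members 9 were higher and 16 lower, where 50.4% of 3893 rows were higher, and the medians were -0.0517 for members and 0.000833 for all rows. With an adjusted p under 0.05 there were 0 members and 0% of rows, and with an unadjusted p under 0.05 there were 0 members and 0.822% of rows. All 5 methyltransferases tested were below 0, with differences from -0.117 to -0.0517, as were 2 of 5 without the array of different profile. Age was tied to the runs of title numbers here, since both juveniles of the third run were younger and both of the fifth older. With the run as a term the median over members was -0.0121 and 4 of 5 methyltransferases were below 0.

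Phf14, a PHD finger protein that binds histone H3, and Hdac1 had the smallest unadjusted p. Phf14 scores were 0.14, 0.20, 0.28, 0.13 and 0.26 in the younger mice and 0.06, -0.08, 0.02, 0.16 and 0.12 in the older ones. Hdac1 scores were 0.34, 0.27, 0.48, 0.23 and 0.39 in the same younger mice and 0.15, 0.01, 0.18, 0.30 and 0.27 in the older ones. In both genes the older mice all lay below the median of the younger ones, with overlap through 1 of the 2 oldest males in Phf14 and through both in Hdac1. The same 2 mice gave the highest and the lowest score of both genes, and the highest was the array of different profile among the juveniles. Phf14 differed by -0.155 ± 0.0728 (limma, unadjusted p = 0.0555, adjusted p = 0.987) and Hdac1 by -0.168 ± 0.0819 (limma, unadjusted p = 0.063, adjusted p = 0.987). By the rule of the methods Hdac1 was called (0.874% of rows), and not after Benjamini-Hochberg adjustment. Exact two-sided permutation tests gave p = 0.0317 and 0.0556, and without that array p = 0.0635 and 0.111. With the run as a term the differences were -0.0657 ± 0.0993 for Phf14 and -0.035 ± 0.0982 for Hdac1 (limma, unadjusted p = 0.528 and 0.731, adjusted p = 1 for both). In the 3 runs that held 1 mouse of each age, which were also of opposite sex, the older mouse differed from the younger by 0.02, -0.01 and -0.18 for Phf14 and by -0.04, 0.04 and -0.09 for Hdac1. Adult mice of the fifth run lay on average -0.0814 from their group means for Hdac1 and -0.0746 for Phf14, and those of the first run 0.0828 and 0.0439. In the fit with the run as a term, both differences were smaller than their SE. That fit compared the ages within 3 runs, between mice of opposite sex. It is too imprecise to decide whether the differences between older and younger juveniles hold. Among the 7 markers of immature or dividing cells on the filter, 3 were tested, and Stmn1, a tubulin-binding protein of growing neurites, had the smallest p of them. Stmn1 and Mcm6 differed between older and younger juveniles by -0.136 ± 0.0721 and -0.135 ± 0.0984, and Ccnd2 by 0.0223 ± 0.0653. The summed score of the 7 markers ran from -0.011 to 1.39 (median 0.219) in the younger juveniles. In the older ones it ran from -0.456 to 0.253 (median 0.16). Its part in these differences was not tested.

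**Figure D4:**
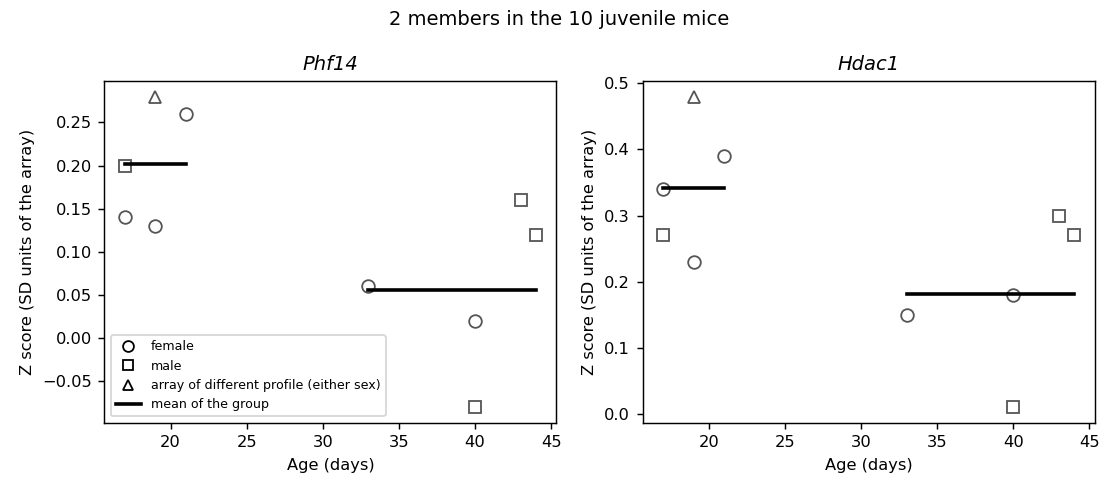
Z scores of Phf14 and Hdac1 (vertical axes, in SD units of each array) against age in days (horizontal axes) in the 10 juvenile mice. Circles are females, squares males, the triangle the array of different profile and bars the means of the younger and older mice; younger means are 0.202 and 0.342, older means 0.056 and 0.182.

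In adult females against males 12 of 25 members were higher (54.5% of rows), with a median of -0.00478. With an adjusted p under 0.05 there were 0 members and 0% of rows, and with an unadjusted p under 0.05 0 members and 0.179% of rows. Without the arrays of different profile 13 of 24 members were higher (50.3% of rows), with a median of 0.00298. With the run as a term 13 of 25 were higher (56.4% of rows), with a median of 0.00285. With array weights 1 member passed (Hmgn1; 2.56% of rows). Differences lay from -0.0444 ± 0.0298 for Hdac1 to 0.0334 ± 0.054 for Kmt2e, and the half-widths of the 95% intervals, 0.0423 to 0.176, were shared with the diet comparison over the ages.

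The 36 members with a mean score below 0 were tested in a fit of all 7782 rows. No member passed the adjusted threshold in any of the 14 comparisons. Unadjusted p under 0.05 was reached by 4 of these genes. Cbx1, a heterochromatin protein that binds methylated histone H3, differed by -0.245 ± 0.0953 between old and middle-aged AL mice (limma, unadjusted p = 0.0132, adjusted p = 1), where 0.694% of all rows had a p under 0.05. Of the 10 middle-aged AL mice, 9 had scores from -1.31 to -0.99 and 1, on an array of different profile, had 0.10. Without such arrays the plain difference was -0.112 (exact permutation p = 0.144). The same mouse enters the difference of -0.197 ± 0.0953 between CR and AL middle-aged mice (0.398% of rows).

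Smarcc2, the paralogue of Smarcc1 in SWI/SNF complexes, was lower in young CR than young AL mice by -0.194 ± 0.0715 (limma, unadjusted p = 0.00923, adjusted p = 0.922; 1.03% of rows). An exact two-sided permutation test of the scores gave p = 0.0823. Its age difference in CR mice was 0.164 ± 0.0769 (0.578% of rows), and the exact permutation p was 0.167. The age difference in CR exceeded that in AL mice by 0.208 ± 0.104 (limma, unadjusted p = 0.0497, adjusted p = 0.975; 0.488% of rows). Hmgn5, a nucleosome-binding protein, was higher in young than juvenile AL mice by 0.18 ± 0.0854 (1.31% of rows), with a permutation p of 0.0565. Brdt, the testis-specific bromodomain protein, was lower in old than young CR mice by -0.0927 ± 0.0457, with an exact permutation p of 0.0579. Such scores lie below the average feature of the filter, the range that the filter on mean score leaves out.

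Correlations between members from mouse to mouse are given as signed medians, in which positive and negative pairs offset each other. They do not measure how strongly single pairs were tied. About the group means, the median correlation between pairs of the 25 tested members was 0.0361 over 57 adult arrays and 0.00347 over the 50 without the different profile, against 0.0437 and 0.0327 for all 2018 named genes tested. The SD between mice of a group ran from 0.0691 for Kmt5b to 0.34 for Phf20, with a median of 0.149 for members and 0.147 for all named genes. Without the arrays of different profile the medians were 0.109 and 0.108. The SD of Kmt5b is that of 2 averaged features, which correlated at -0.732. By run of title numbers, the mean deviation of adult mice from their groups spanned a median of 0.167 over the 5 runs for the tested members and 0.183 for all rows tested. The widest spans were those of Phf20, from -0.312 in the fifth run to 0.416 in the third, and of Setd4, a methyltransferase below the filter, from -0.329 in the first run to 0.266 in the fourth. For the 17 members with several features, the 19 feature pairs correlated at a median of -0.0456, from -0.768 for Kdm7a to 0.912 for Setdb1. In 7 of these genes, among them Brd2, Chd9 and Kdm5b, the features lay on both sides of 0, so that the averaged score of such a gene mixes unlike readings.

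The members were then compared between the arrays of different profile and the rest. Each array was set against the mean of the other mice of its own group, and since the 8 arrays were chosen on their whole profile, the values are a description. The median absolute shift was 0.268 for the tested members and 0.303 for all rows tested, and 17 of 25 members (68%) shifted to the same side in all 8 arrays, as did 71.2% of all rows tested. Over all 61 members 30 did so (49.2%), against 59.5% of all 7782 rows. Upward shifts were seen for Kmt2b (0.578 on average, 0.47 to 0.688), Setd1b (0.527, 0.43 to 0.61) and Setdb1 (0.505, 0.371 to 0.622), which all encode methyltransferases of histone H3. Downward shifts were seen for Rbbp5 (-0.647, -0.82 to -0.45), Rbbp9, a serine hydrolase first isolated as an Rb-binding protein (-0.596, -0.835 to -0.415), Kmt2e (-0.41, -0.51 to -0.285), Hmgn1 (-0.395, -0.6 to -0.19) and Sirt1 (-0.363, -0.535 to -0.142). Each of these 8 average shifts exceeded every age, diet and sex difference of the same gene given by limma. Hdac1, Kat2b and Smarca5, the ISWI ATPase, lay on both sides of their groups, with means of 0.00969, 0.00969 and 0.0128.

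**Figure D5:**
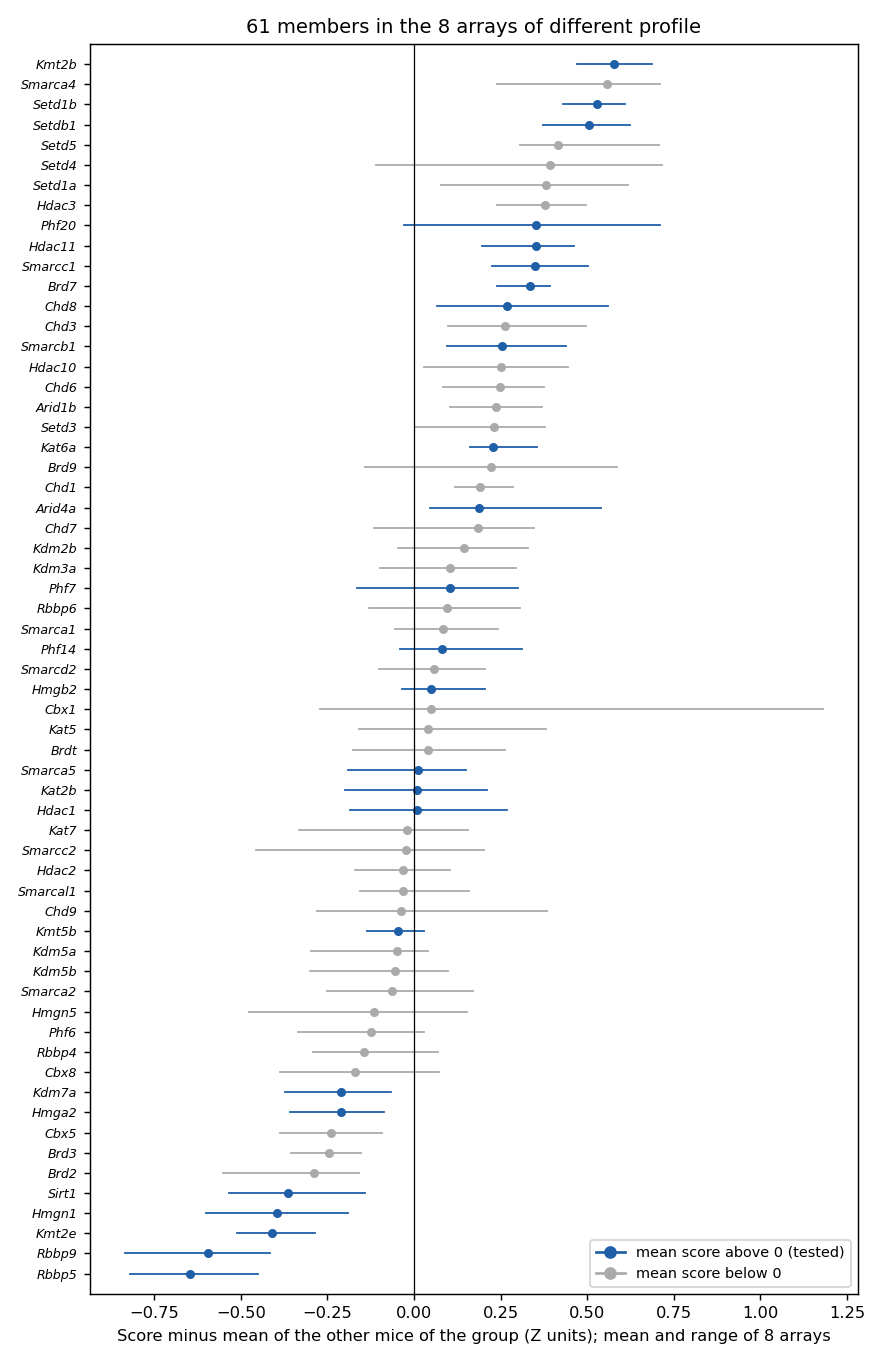
Shift of each of the 61 members (vertical axis) in the 8 arrays of different profile, as the score minus the mean of the other mice of the same group (horizontal axis, Z units). Points are means and lines ranges over the 8 arrays, blue for the 25 tested members; Kmt2b at 0.578 and Rbbp5 at -0.647 mark the ends.

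Other chromatin genes outside these name prefixes were taken from a list of 170, of which 70 were on the filter and 31 were tested. In the 14 comparisons 0 of them passed the adjusted threshold. Between old and young AL mice 13 of 31 were higher (49.5% of rows), with a median of -0.017. Between CR and AL mice over the ages 17 of 31 were higher (45.7% of rows), with a median of 0.00108. An unadjusted p under 0.05 was reached by 1 gene, Smc1a, a subunit of the cohesin ring, in 2 of the 14 comparisons, where 0.845% and 0.999% of rows did so. It differed by -0.088 ± 0.0356 between middle-aged and young AL mice and by 0.112 ± 0.0384 between old and middle-aged CR mice (limma, unadjusted p = 0.0168 and 0.00533, adjusted p = 1 for both).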

How the data were processed

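Striatal RNA of 67 mice was labelled with a radioactive nucleotide by reverse transcription, hybridized to nylon cDNA filters and read from imaging screens. For each of 8448 features the deposited table holds a score per mouse, a Z score that the authors centred at 0 and scaled to an SD of 1 within every array. How background was treated and which log base was used is not given in the sources used here. The number of mice limits the precision.

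Groups came from the sample titles and characteristics. The 2 columns whose order was reversed were turned, features were named through the platform annotation (all 61 members matched RefSeq), and features of a gene were averaged into 7782 rows. Rows with a mean score above 0 were tested with limma 3.58.1 in R 4.3.3 (lmFit and eBayes), adults in 1 model of all 12 age, diet and sex groups and juveniles in models of their own, with Benjamini-Hochberg adjustment over all rows and a threshold of 0.05. Single genes were tested by two-sided permutation (exact, or 100000 permutations for 10 against 10; scipy 1.17.1). The scripts were tested on simulated data.

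The members, families, marker lists and list of other chromatin genes were chosen with earlier results of these data known. Genes were named by the smallest unadjusted p, up to 3 in each direction of a comparison, since 0 members passed the threshold. Members with several features and a list of well-known members were open to description too. Genes below the filter and those of the feature and profile comparisons were chosen after their values were seen.

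The alternatives were no filter, quantile normalization, a correction for position on the filter, features kept apart, the order as deposited, arrays left out, array weights, the compared groups alone, a replicate block and the methods' own rule (Z-ratio beyond 1.5, unadjusted p and a mean score above 0), without its closing analysis of variance. Class weights for the arrays of different profile and the combinations with no filter were added after seeing the data.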

Additional observations from a re-analysis of the deposited data

Results flagged for a closer look

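In 162 tests of a group of mice for 1 score standing apart from the rest (Dixon's ratio of the gap to the range), 26 scores did so, 24 of them on arrays of different profile. Chance alone flags about 1 in 20 groups. The other 2 were Kdm7a in old CR female replicate 4, at 1.38 where the other 7 old CR mice lay between 1.09 and 1.23, and Hmgn5 in middle-aged CR male replicate 2, at 0.09 where the others lay between -0.47 and -0.29.

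On the arrays of different profile, Arid4a stood apart at 0.94 in young AL female replicate 3 (others 0.30 to 0.53). Cbx1 stood apart at 0.1 in middle-aged AL female replicate 2 (others -1.31 to -0.99). Kdm7a was lowest at 1.07 in old AL male replicate 4 and at 0.885 in middle-aged CR male replicate 3, in which Smarcc1 was highest, at 0.84. Hmgn1 was lowest at -0.2 in middle-aged AL female replicate 2.

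Sirt1 was lowest at -0.12 in juvenile AL male replicate 3, both among all juveniles and among the younger ones, at -0.12 in middle-aged AL female replicate 2 and at 0 in middle-aged CR male replicate 3. Rbbp5 was lowest on 4 such arrays, at 0.45 in juvenile AL male replicate 3, 0.51 in middle-aged AL female replicate 2, 0.53 in old AL male replicate 4 and 0.63 in middle-aged CR male replicate 3. Rbbp9 was lowest on 5, at -0.29 in juvenile AL male replicate 3 (in both juvenile sets), -0.17 in middle-aged AL female replicate 2 and in old AL male replicate 4, -0.24 in young CR female replicate 4 and -0.18 in middle-aged CR male replicate 3. The median over the 25 tested members was highest on 4, at 0.75 in young AL female replicate 3, 0.58 in old AL male replicate 4, 0.58 in young CR female replicate 4 and 0.63 in middle-aged CR male replicate 3. What set these arrays apart was not tested.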

How the results depend on the processing

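Under every alternative but array weights and the methods' own rule, 0 members passed the adjusted threshold in the comparisons run, including with each array left out in turn. The methods' rule, before adjustment, called 1 member between young and juvenile AL mice (Arid4a; 0.565% of rows), 1 between older and younger juveniles (Hdac1; 0.874%) and 2 between middle-aged and young AL mice (Arid4a and Kdm7a; 0.514%), and 0 after Benjamini-Hochberg adjustment. Array weights called 2 members between middle-aged and young CR mice (16% of rows), 2 between old and middle-aged CR mice (4.43%), 8 between old and young CR mice (24.8%) and 1 between the sexes (2.56%). That fit gave 1 old CR male a weight of 135, where the next highest was 3.92, and its estimation did not converge. With 1 weight shared by the arrays of different profile, 0 members were called. In the order as deposited, the median member difference was -0.0978 (old against middle-aged AL), -0.124 (old against young AL), 0.111 (CR against AL in old mice) and 0.108 (age effect between diets). The cause was not tested beyond the 2 reversed columns themselves.

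Signs turned for some named genes. In juveniles, Rbbp5 was at -0.0659 without the arrays of different profile (filtered or not), -0.146 with array weights, and -0.0471 and -0.0402 with class weights. Rbbp9 was there at -0.0808, -0.0274, -0.0648 and -0.059 in the same fits. For old against young AL, Rbbp9 was at -0.0182, -0.00702, -0.00512 and -0.00187 in these fits. Array weights gave Kat2b -0.0239 (old against middle-aged CR) and -0.00248 (age effect between diets), and Sirt1 -0.0133 (CR against AL, young). The order as deposited gave Smarca5 -0.0785 (old against middle-aged AL). For old against young AL it gave Kdm7a -0.209, Rbbp9 -0.259 and Kat2b 0.188. For CR against AL in old mice it gave Kat2b -0.186, Phf14 -0.492, Hmgb2 0.188, Kdm7a 0.231 and Rbbp9 0.262. Over the ages it gave Sirt1 -0.023, Kat2b -0.057, Hmgb2 0.0588, Kdm7a 0.0813 and Setd1b 0.0128. For the age effect between diets it gave Kat2b -0.174, Kdm7a 0.179, Rbbp9 0.143 and Hmgb2 0.198. Of 1079 alternative values of the 84 named gene and comparison pairs, 37 turned sign, as did 7 of 4283 with 1 array left out. With each array left out in turn, the 7 pairs concerned ranged as follows. Rbbp5 lay between -0.0659 and 0.25 and Rbbp9 between -0.0808 and 0.212 in juveniles, both lowest without juvenile AL male replicate 3. Rbbp9 lay between -0.0025 and 0.135 for old against young AL and between -0.084 and 0.016 for CR against AL in middle age. Setdb1 lay between -0.0231 and 0.148 for old against young CR, Setd1b between -0.0528 and 0.0147 for CR against AL over the ages, and Hmgn1 between -0.00158 and 0.0609 for females against males.

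The main fit did not treat the replicate numbers as pairs. Of 298 pairs of arrays of the same run of title numbers, 182 correlated above 0.1 about their group means. Arrays of a run deviated together, at a median of 0.239 against -0.0374 between runs (0.222 and -0.0413 without the arrays of different profile), and 26 of 57 were nearest to their own run. The p-values of the main fit take no account of this. With the run as a term, the share of rows with an unadjusted p under 0.05 rose from 0.514% to 4.98% between young and juvenile AL mice (limma). It rose from 2.18% to 4.23% between middle-aged and young CR mice, and fell from 0.822% to 0.0771% between older and younger juveniles. With the replicate block by run, 0 members were called, the median for old against young AL was -0.013, and Rbbp9 in juveniles was at -0.0736.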
